A study of Danio rerio with 18 samples.

Results

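The proteasome is the protease that degrades ubiquitin-tagged proteins. Its core is a barrel of stacked rings, with alpha subunits gating the entrance and beta subunits carrying the catalytic sites. A regulatory cap with a base of ATPases and a lid of non-ATPase subunits recognises, unfolds and feeds in the substrate. Immune cells and cells exposed to interferon can exchange the catalytic beta subunits for inducible ones. In neurons proteasomes act in the cell body, the axon and at synapses, and injured axons degrade in part through them. The genes described here are those whose names in the deposited tables begin with psma, psmb, psmc, psmd, psme, psmf or psmg and a digit. There were 55 such genes among 25281.

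Retinal ganglion cells, whose axons form the optic nerve, were sorted from adult zebrafish aged 3 to 5 months. All fish carried isl2b:GFP, in which the isl2b promoter drives green fluorescent protein, so the sort takes whatever cells are green. In the injured groups the optic nerve was transected and the eye collected 6, 12 or 24 hours post injury (hpi). The control groups came from the uninjured eyes on the opposite side of the head, at the same 6, 12 or 24 hpi, so the controls also lived through the surgery. Each of the 6 groups held 3 libraries, 18 in all, each made from 1000 sorted cells by poly(A) priming and full-length amplification. The labels do not say whether fish were pooled or whether replicates came from separate animals, so p-values measure only the spread between these libraries.

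Total counts were 15490375 to 28329194 per library. The reporter's driver isl2b spanned 12.2 to 298 CPM (counts scaled to library size after TMM, edgeR's correction for library composition). It was under 50 CPM in 5 libraries, namely injured 6 hpi replicate 1, injured 12 hpi replicate 1, control 12 hpi replicate 2 and injured 24 hpi replicates 1 and 2. Leaving these 5 out keeps 1 injured library at 24 hpi. At that time isl2b had 39.6, 42.2 and 101 CPM in injured and 291, 282 and 224 CPM in control libraries, without overlap. The groups overlapped at 6 and 12 hpi. The part of this difference in the 24 hpi proteasome values was not tested. The 25 ganglion cell markers found in the tables took 0.0468 to 0.331% of counts, against 13.1 to 25.8% for 28 rod and cone markers, so the label did not describe all of the RNA in the libraries. The summed rod and cone markers had a median of 265303 CPM in injured libraries and 202176 CPM in control libraries. The summed ganglion cell markers had a median of 1077 CPM in injured and 2184 CPM in control libraries. Other retinal cells were present too. Summed bipolar cell markers had a median of 6571 CPM in injured and 8207 CPM in control libraries. The medians were 3804 and 3606 CPM for Mueller glia markers, and 177 and 507 CPM for amacrine cell markers, in the same order. In such bulk samples fewer cells of a type and less RNA per cell cannot be told apart.

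By role the 55 genes comprised 9 of the alpha ring, 7 constitutive beta subunits, 7 alternative beta subunits, 7 ATPases, 12 non-ATPase subunits, 3 chaperones of the base, 5 activators, 1 inhibitor and 3 chaperones of the core. The remaining gene, psmc3ip, matches by name only, since it encodes a partner of recombination proteins. None of the 55 genes was named psma7 or psmd2, so neither was analysed here, and whether another row holds them was not settled. After a filter on low counts 52 of the 55 genes were tested. The other 3 were psmb11a, psmb11b and psmb13a. Of the 55 genes, 44 had a mean of at least 10 CPM. The other 11 had means of 0 to 6.70 CPM, and fold changes among them are imprecise.

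Nearly all structural subunits were abundant. Levels between genes are compared here by TPM, the authors' deposited values, which are corrected for transcript length. The highest was the alpha subunit psma3 (ENSDARG00000086618, GRCz11 chromosome 17, 11421643 to 11439815, minus strand) with 555 TPM as a mean over 18 libraries. The next was psmb7, the trypsin-like catalytic subunit, with 450 TPM, followed by psmb3, a non-catalytic beta subunit, with 376 TPM. The 7 constitutive beta subunits spanned 168 to 450 TPM and the 7 ATPases 69.1 to 252 TPM. The alpha ring spanned 86.4 to 555 TPM apart from psma6l, a divergent copy of psma6, which had 1.52 TPM. The non-ATPase subunits were the most uneven, between 17.7 TPM for psmd11a and 177 TPM for psmd14, the deubiquitinase of the lid. psmd11a and psmd11b, both copies of a lid subunit, summed to 36.0 ± 4.33 TPM (SD, n = 18), so the pair together was still below every other cap subunit analysed. The core chaperones psmg1, psmg2 and psmg3 had 67.6, 42.4 and 122 TPM, and the inhibitor psmf1 had 41.2 TPM.

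**Figure D1:**
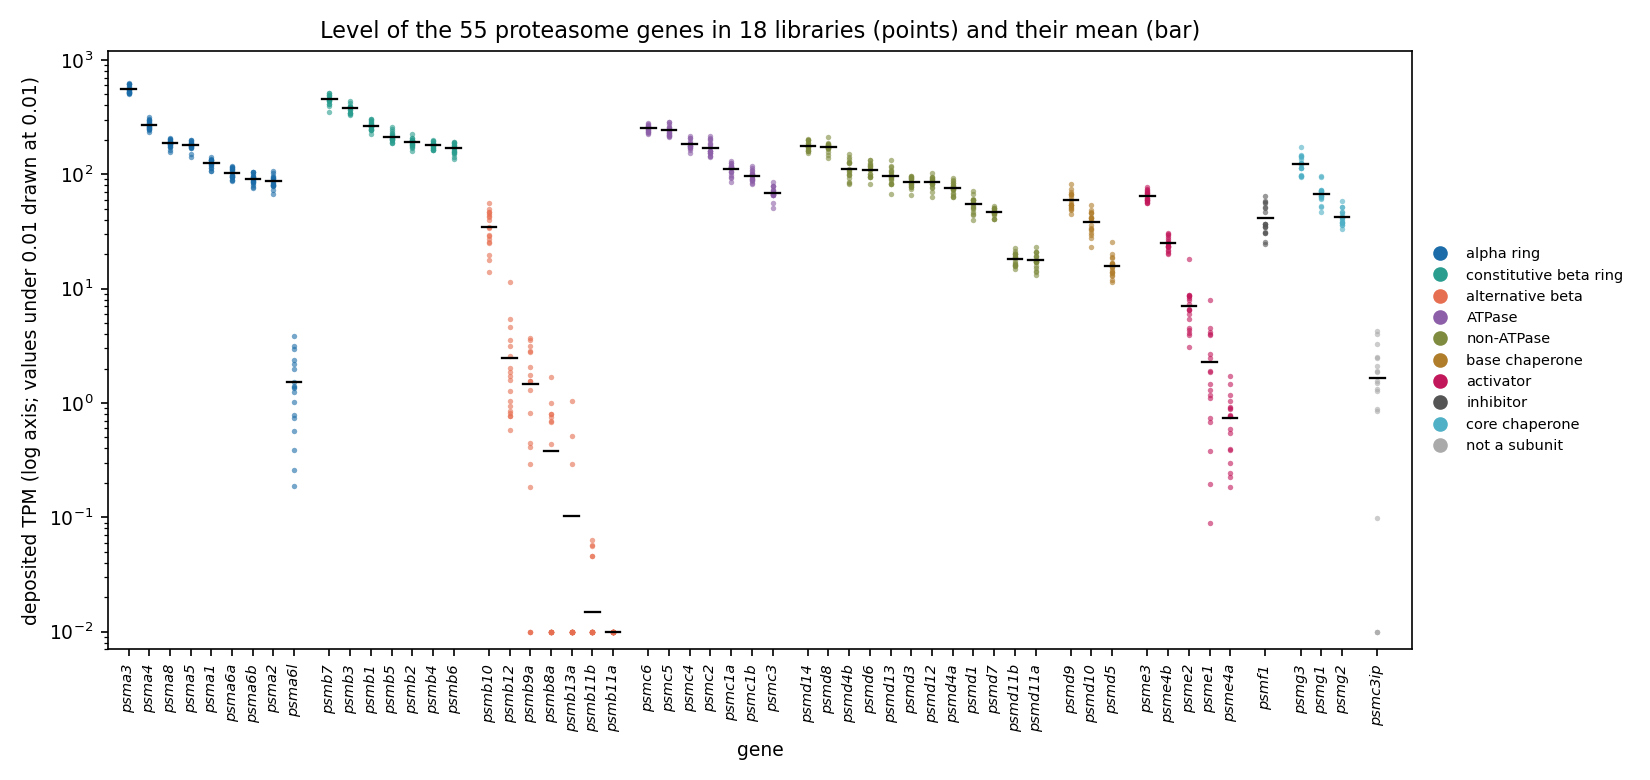
TPM of each of the 55 genes (log axis), grouped by role, with 18 points for the libraries and a bar for their mean. Structural subunits lie between 17.7 TPM (psmd11a) and 555 TPM (psma3), apart from psma6l, while the alternative beta genes spread downward from 34.7 TPM (psmb10) to 0 (psmb11a).

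The well-counted genes varied little from library to library. Among the 44, the ratio of the highest to the lowest CPM over 18 libraries was between 1.22 for psmc5, an ATPase, and 4.06 for psmb10, with a median of 1.58. The same ratio had a median of 2.196 over all 8233 genes of at least 10 CPM that were at 0 in no library. Within groups, variation beyond counting noise (edgeR's biological coefficient) was 0.112 to 0.297 with a median of 0.146. For 37 of the 44 it lay below the median of genes of like level (within 0.5 log2 CPM), and their median percentile among those genes was 26.5. The base chaperone psmd10 spanned 14.6 to 39.6 CPM. These are descriptions of the 18 libraries, with no test.

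As a group the genes took 0.434 to 0.522% of all counts, and summed to 4246 to 5570 CPM. The 3 highest sums were 5570 CPM in injured 24 hpi replicate 3, 5382 CPM in injured 24 hpi replicate 2 and 5291 CPM in injured 12 hpi replicate 1. The lowest were 4246 CPM in control 12 hpi replicate 2 and 4290 CPM in control 6 hpi replicate 2. This order rests on TMM scaling. By share of all counts the highest libraries were control 12 hpi replicate 3 and injured 12 hpi replicate 3 (0.522% each) and control 6 hpi replicate 2 (0.517%), so the last of these was high on one scale and low on the other. The mean share was 0.474 ± 0.021% in injured and 0.505 ± 0.017% in control libraries at 6 hpi, 0.496 ± 0.023% in injured and 0.490 ± 0.049% in control libraries at 12 hpi, and 0.483 ± 0.027% in injured and 0.477 ± 0.006% in control libraries at 24 hpi (SD, n = 3 each). At 6 hpi the injured mean was thus below the control mean by share of counts. With TMM scaling, 32, 40 and 38 of the 44 genes lay above their own mean in the injured 24 hpi libraries, against 15, 21 and 26 in the control 24 hpi libraries. At 12 hpi the counts were 36, 13 and 15 in the injured and 17, 10 and 31 in the control libraries, and at 6 hpi 34, 10 and 29 in the injured and 14, 5 and 20 in the control libraries. The 24 hpi groups did not overlap, while those at 6 and 12 hpi did. The same count by library was not made for other genes. Of all 8251 tested genes of at least 10 CPM, 59.5% had higher estimates in injured than in control libraries at 24 hpi. The non-overlap is thus not shown to be particular to the proteasome. Rod and cone markers took 24.1, 16.1 and 23.6% of counts in the injured 6 hpi libraries, against 15.2, 13.1 and 21.1% in the control 6 hpi libraries. They took 24.7, 20.2 and 16.6% in the injured 12 hpi libraries, against 17.2, 19.5 and 20.3% in the control 12 hpi libraries. They took 25.3, 25.8 and 24.4% in the injured 24 hpi libraries, against 22.3, 22.4 and 22.1% in the control 24 hpi libraries. The part of this cell mix in the proteasome values was not tested.

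**Figure D2:**
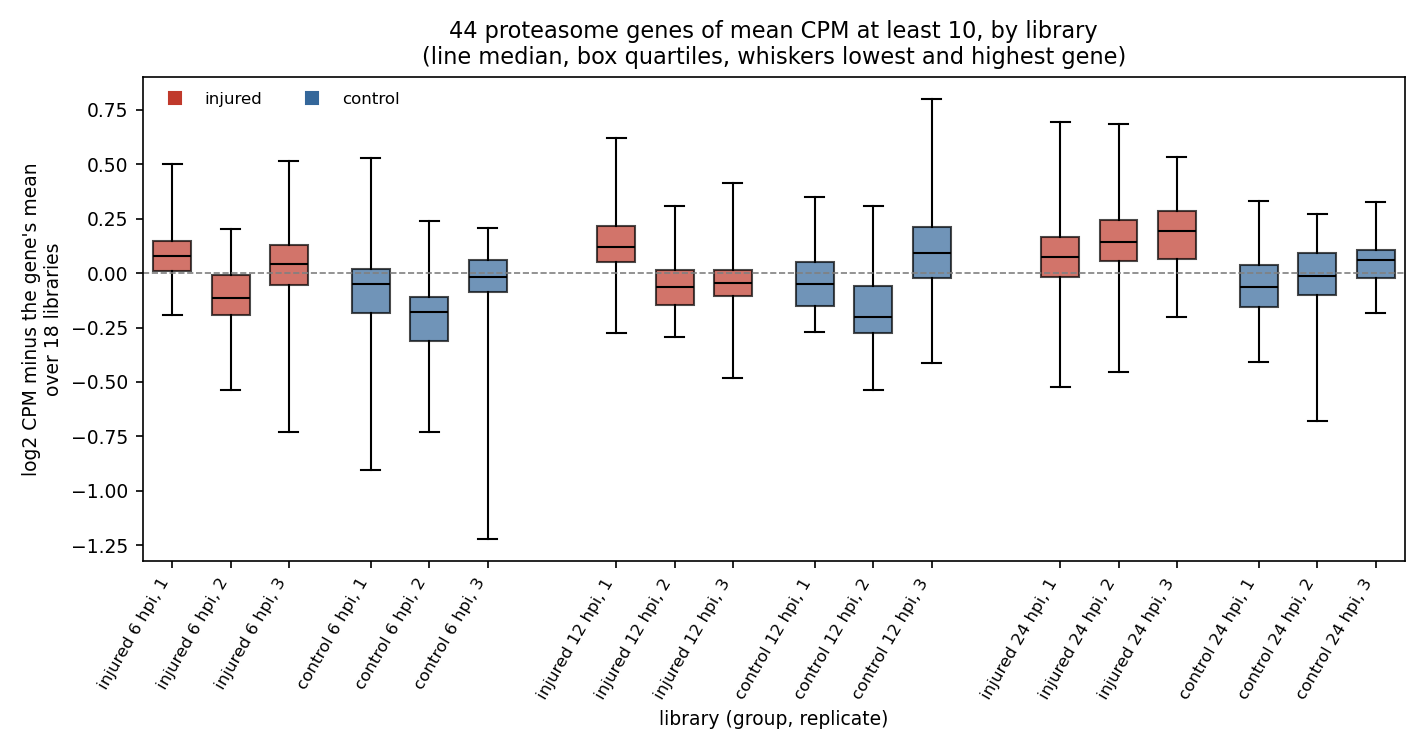
Deviation of log2 CPM from each gene's own mean over 18 libraries, for the 44 genes of at least 10 CPM, by library (red injured, blue control; line median, box quartiles, whiskers the lowest and highest gene). The medians of the injured 24 hpi libraries are 0.07, 0.14 and 0.19, against -0.06, -0.01 and 0.06 in the control 24 hpi libraries.

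No proteasome gene changed significantly after the injury at any time (edgeR quasi-likelihood test, Benjamini-Hochberg adjustment over 17527 genes, adjusted p under 0.05). This held for 0 of 52 members at 6, 12 and 24 hpi and for the average over the times. Over all genes the same test called 0 as well (0% at each time and for the average), so the absence of calls was not particular to the proteasome. Of the same 17527 genes DESeq2 called 68, 7 and 189 at 6, 12 and 24 hpi and 226 for the average, and 0 of these were members. The authors' deposited values gave an adjusted p under 0.05 for 128, 23 and 506 genes at 6, 12 and 24 hpi, again with 0 members. These were 0.603%, 0.109% and 2.41% of the genes with a p. At such low shares, 0 members called does not set the proteasome apart from other genes. The smallest adjusted p of a member in the authors' deposited table was 0.615 for psme4a at 6 hpi, rounded to 1.00 at 12 hpi for psma1 and 0.480 for psmd1 at 24 hpi. The joint edgeR test of whether the injury effect differed between times called 0 genes (0%), had 0 members with an unadjusted p under 0.05, against 5% of all genes, and DESeq2 called 13 genes with 0 members.

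The estimates nevertheless leaned upward, by small amounts. At 24 hpi 46 of 52 members were higher and 6 lower in injured than in control libraries, where 51.4% of all genes were higher. Their median log2 fold change was 0.15, against 0.02 over all genes. At 6 hpi 35 were higher and 17 lower, against 48% of all genes higher, with a median of 0.09 against -0.02 over all genes. At 12 hpi 34 were higher and 18 lower, against 50.1% of all genes higher, with a median of 0.05 against 0.00 over all genes. For the average over times 44 were higher and 8 lower, against 49.5% of all genes, with a median of 0.10 against 0.00. Part of the lean at 24 hpi was shared by well-counted genes at large: of the 8251 tested genes of at least 10 CPM, 59.5% were higher, with a median of 0.06, against 41 of the 44 members at that level, with a median of 0.15. Members share cells and libraries, so their shared direction is not a count of independent observations, and no test was made of it. A member's own standard error had a median of 0.15 at 24 hpi among the 44, as large as the median effect.

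The direction depended on scaling. With library totals in place of TMM factors the median over all genes moved by more than 0.1 at 6 hpi, to -0.22, at 24 hpi, to -0.10, and for the average, to -0.12. The members' median then was -0.11 at 6 hpi, 0.02 at 12 hpi, 0.03 at 24 hpi and -0.02 for the average, so the sign turned at 6 hpi and for the average. Relative to the median of all genes the members stood 0.11, 0.05 and 0.14 higher at 6, 12 and 24 hpi with TMM, and 0.10, 0.04 and 0.14 higher with library totals. The medians also moved with single libraries. At 12 hpi the median was -0.03 without control 12 hpi replicate 2 and -0.00049 without injured 12 hpi replicate 1, but 0.15 without control 12 hpi replicate 3 and 0.09 without injured 12 hpi replicate 3. At 6 hpi it was 0.03, 0.16 and 0.06 without injured 6 hpi replicate 1, 2 or 3, and 0.04 and 0.15 without control 6 hpi replicate 2 or 3. At 24 hpi it was 0.10 without injured 24 hpi replicate 3. Without the 5 libraries of low isl2b the medians were 0.04, -0.07 and 0.21 at 6, 12 and 24 hpi and 0.06 for the average. That setting left 1 injured library at 24 hpi, replicate 3, so the 0.21 rests on it alone on the injured side. Sample numbers in the labels fall into 2 runs of 4 and 14 libraries, and within the second run the members' medians were 0.06 at 12 hpi, where it held all 6 libraries, and 0.08 at 24 hpi, where it held 2 of each group. At 6 hpi the second run held 1 control library, and the first run held too few libraries for such values.

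**Figure D3:**
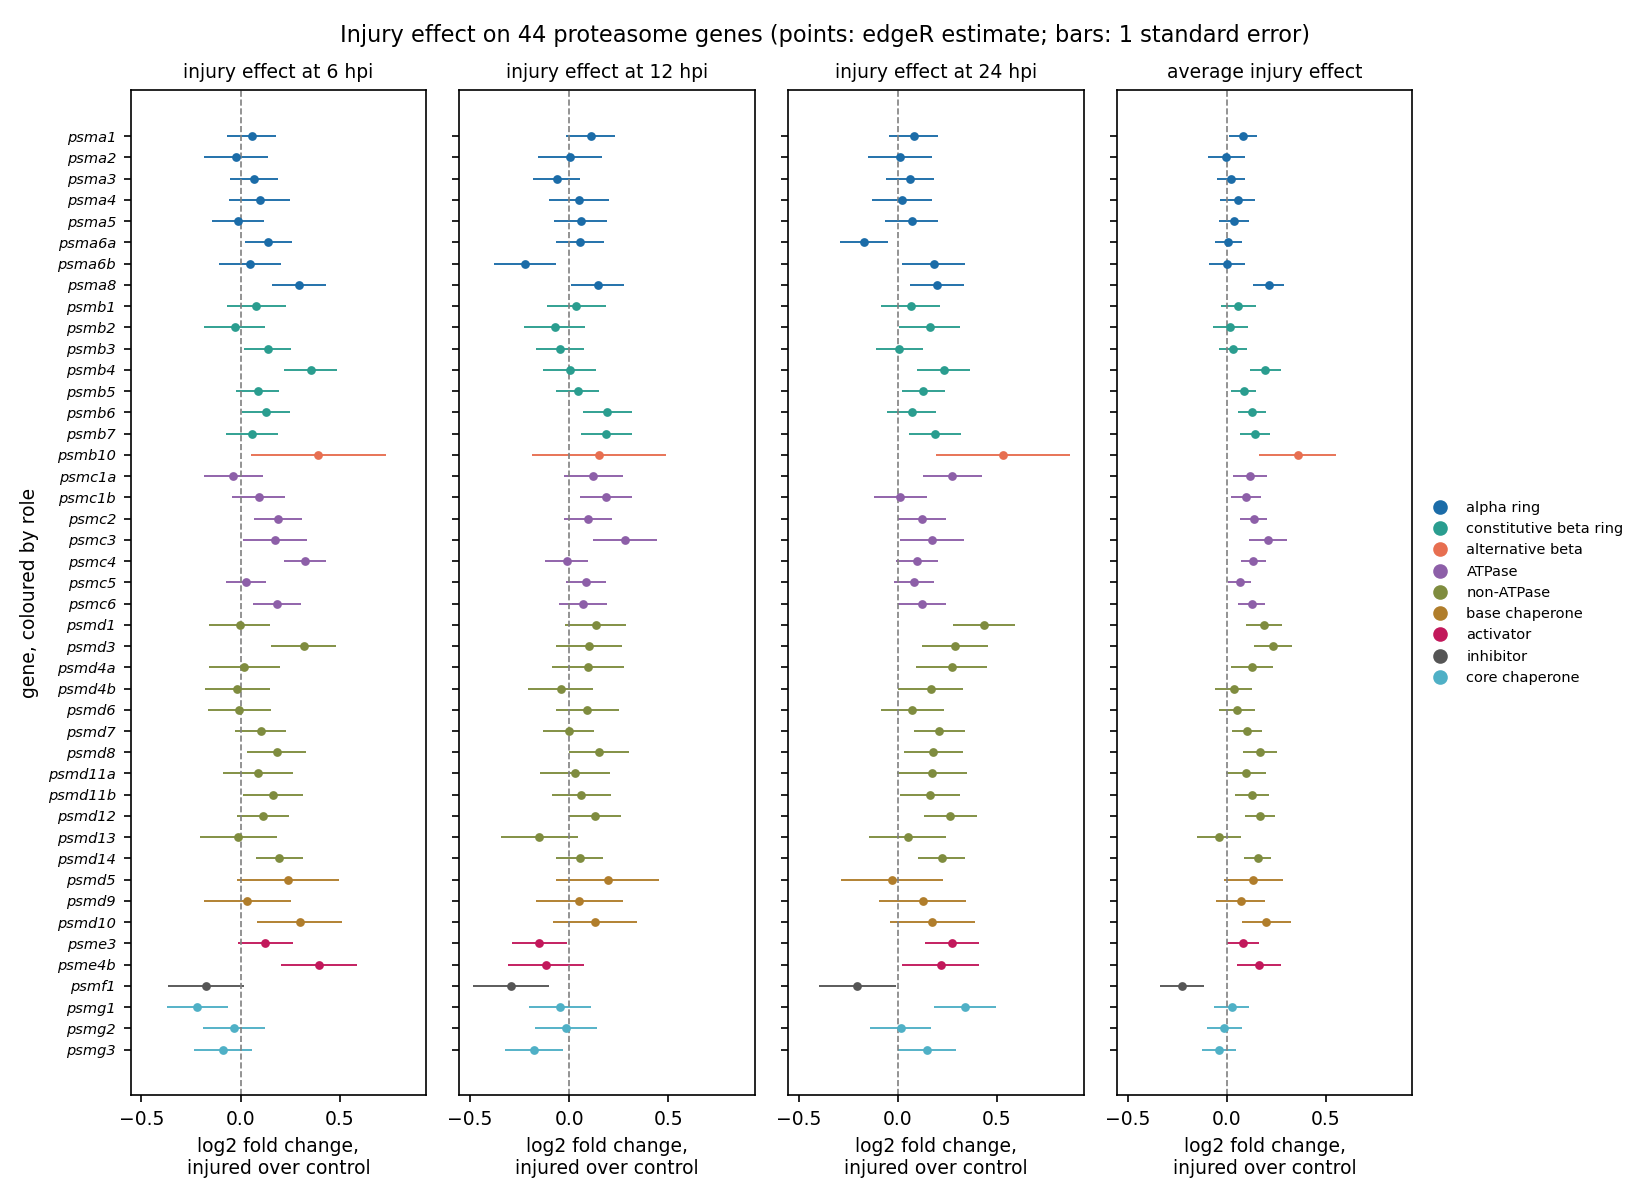
Log2 fold change (injured over control, edgeR with TMM) with 1 standard error for the 44 genes of at least 10 CPM, by role, at 6, 12 and 24 hpi and on average over the times. At 24 hpi 41 of the 44 points lie above 0, and the values span -0.20 to 0.53. With library totals in place of TMM all points would sit lower, by a shift of about the size of the change in the median of all genes.

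The alpha ring was close to level. Its 9 genes had a median log2 fold change of 0.06 at 6 hpi, 0.05 at 12 hpi and 0.06 at 24 hpi. The exception with the smallest p was psma8 (ENSDARG00000010965, chromosome 20, 18306122 to 18313864, minus strand), whose mammalian counterpart is the germ cell form of an alpha subunit. In these libraries psma8 was not a rare form. Its mean was 186 TPM, within the range of the alpha ring, and no gene analysed was named psma7. At 6 hpi it had 147, 128 and 152 CPM in injured libraries, against 125, 101 and 122 CPM in control libraries. The groups did not overlap, as was so for 5 members that were higher and 0 that were lower (6.13% and 7.13% of all genes). The log2 fold change was 0.30 ± 0.13 (SE), with an unadjusted p of 0.0419 and an adjusted p of 0.531 in edgeR, and 0.10 with library totals. At 12 hpi it had 148, 127 and 119 CPM in injured and 115, 112 and 130 CPM in control libraries, and at 24 hpi 135, 146 and 158 CPM in injured and 110, 131 and 142 CPM in control libraries. The groups overlapped at both later times. Averaged over times it had the smallest edgeR adjusted p of any member, 0.276, with a log2 fold change of 0.21 ± 0.08, or 0.10 with library totals.

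Among the constitutive beta subunits, 6 of 7 were higher at 6 hpi, 5 of 7 at 12 hpi and 7 of 7 at 24 hpi, none past the threshold. The 3 catalytic ones were examined by library. psmb5, the chymotrypsin-like subunit, had 158, 143 and 164 CPM in injured 6 hpi libraries, against 145, 144 and 150 CPM in control 6 hpi libraries. It had 169, 154 and 166 CPM in injured and 166, 136 and 173 CPM in control libraries at 12 hpi. By 24 hpi it had 158, 176 and 170 CPM in injured and 152, 154 and 156 CPM in control libraries. Only at 24 hpi were all injured values above all control values, by 0.13 ± 0.11 on the log2 scale, an effect as small as its error.

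psmb6, the caspase-like subunit, had 146, 121 and 123 CPM in injured and 120, 109 and 127 CPM in control libraries at 6 hpi. At 12 hpi it had 137, 116 and 116 CPM in injured and 116, 99.2 and 109 CPM in control libraries, and at 24 hpi 109, 123 and 135 CPM in injured and 118, 118 and 114 CPM in control libraries. The 12 hpi groups were separated by less than the digits printed, and the log2 fold change there was 0.19 ± 0.12 (edgeR adjusted p = 1). It was 0.11 without injured 12 hpi replicate 1 and 0.05 without the 5 libraries of low isl2b. Fewer genes separated at 12 hpi than at the other times, 4.14% higher and 4.26% lower over all genes, with 2 members higher and 0 lower. psmb7 had 288, 246 and 281 CPM in injured and 261, 249 and 272 CPM in control libraries at 6 hpi, and 306, 268 and 277 CPM in injured and 251, 208 and 287 CPM in control libraries at 12 hpi. The 24 hpi libraries gave 297, 311 and 350 CPM in injured and 248, 311 and 283 CPM in control libraries. Its groups overlapped at every time, and the average log2 fold change was 0.14 ± 0.08 (edgeR adjusted p = 0.447), or 0.03 with library totals.

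psmb4 (ENSDARG00000054696, chromosome 19, 42456922 to 42462491, minus strand), a non-catalytic beta subunit, showed the largest estimate of the constitutive beta ring at 6 hpi. It had 122, 97.2 and 113 CPM in injured and 78.3, 83.5 and 97.9 CPM in control libraries. The lowest injured value fell just under the highest control value. The log2 fold change was 0.35 ± 0.13, with an unadjusted p of 0.0174 and an edgeR adjusted p of 0.477, and 0.15 with library totals. At 24 hpi it had 105, 121 and 112 CPM in injured and 91.8, 100 and 96.0 CPM in control libraries, which did not overlap. At 12 hpi the values were 105, 84.6 and 88.0 CPM in injured and 81.0, 96.0 and 100 CPM in control libraries, and the groups overlapped.

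The inducible core subunits were almost absent, with the exception of psmb10. In mammals PSMB8, PSMB9 and PSMB10 replace PSMB5, PSMB6 and PSMB7 when the immune form of the core is made. psmb8a averaged 0.381 TPM, against 213 TPM for psmb5, and psmb9a averaged 1.47 TPM, against 168 TPM for psmb6. psmb8a was listed at 0 in 10 of 18 libraries. A count of 0 allows up to 3 counts, which is 0.0961 to 0.195 CPM in these libraries. Its values were 0, 1.38 and 0 CPM in injured and 0, 0 and 0.735 CPM in control libraries at 6 hpi. They were 0.705, 0 and 0 CPM in injured and 0, 0.897 and 0.705 CPM in control libraries at 12 hpi, and 0.703, 0 and 0.813 CPM in injured and 0, 0 and 0.414 CPM in control libraries at 24 hpi. No time showed a separation.

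psmb9a had 0.336, 2.05 and 0.212 CPM in injured and 1.61, 1.49 and 1.37 CPM in control libraries at 6 hpi. It had 0.940, 0.973 and 0.471 CPM in injured and 1.03, 0 and 0 CPM in control libraries at 12 hpi, and 2.68, 1.16 and 0.300 CPM in injured and 2.08, 0.123 and 0 CPM in control libraries at 24 hpi. psmb12, a further beta-type gene of the same fish gene cluster, ranged from 0.272 to 4.604 CPM, with means of 0.883 CPM in injured and 1.43 CPM in control libraries. psmb13a had counts in 3 libraries only, injured 6 hpi replicate 2, control 6 hpi replicate 3 and injured 12 hpi replicate 2. psmb11a, the relative of the thymus-specific mammalian subunit, was at 0 in all 18 libraries, and psmb11b never passed 1 count. The psmb8a and psmb13a models overlap each other on the minus strand of chromosome 19 and contain psmb12 and psmb9a on the plus strand. Both models also overlap tap2a. Whether counting used the strand is not given in the sources used here, so counts within this cluster are uncertain.

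psmb10 (ENSDARG00000043781, chromosome 4, 77207693 to 77218637, minus strand) was present in every library, at a mean of 34.7 TPM. It had 27.9, 15.8 and 13.8 CPM in injured and 16.8, 17.1 and 9.84 CPM in control libraries at 6 hpi. It had 35.3, 28.4 and 30.6 CPM in injured and 27.5, 17.5 and 40.0 CPM in control libraries at 12 hpi, and 37.1, 37.0 and 22.8 CPM in injured and 28.4, 14.3 and 24.4 CPM in control libraries at 24 hpi. Groups overlapped at every time. The average log2 fold change was 0.36 ± 0.20 (edgeR adjusted p = 0.469), and it was -0.04 without the 5 libraries of low isl2b and 0.23 with library totals. Of the summed TPM of psmb10 and psmb7, psmb10 made up 7.56 ± 2.09% in injured and 6.69 ± 2.52% in control libraries (SD, n = 9 each). The difference of 0.87 percentage points had an exact p of 0.3245 in a two-sided permutation test with labels permuted within each time (smallest possible p 0.00025), and an adjusted p of 0.8405 over 6 such shares.

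Lymphocyte markers were low, and macrophage and microglia markers summed higher, over 24 genes. The 24 macrophage and microglia markers summed to a median of 56.2 CPM in injured libraries (33.8 to 238) and 38.2 CPM in control libraries (27.2 to 164), and the 15 lymphocyte markers to 0.156 to 2.84 CPM in injured and 0.207 to 6.95 CPM in control libraries. Of the macrophage markers, 1 was at 0 in all 18 libraries, and of the lymphocyte markers 3 were. The defining macrophage gene mpeg1.1 was at 0 in 15 libraries. It exceeded 1 CPM in 2, with 8.0 CPM in injured 12 hpi replicate 2 and 26.0 CPM in control 24 hpi replicate 1. lcp1 was at 0 in 10 libraries, with a highest value of 11.5 CPM in control 24 hpi replicate 1. csf1ra was at 0 in 13 libraries and reached at most 0.895 CPM. ptprc had counts in 15 libraries but at most 2.08 CPM. These named genes carried a minor part of the sum, and the other genes of the list are not given singly. Of the 24 markers, 23 had counts in injured 12 hpi replicate 2 and 17 in injured 6 hpi replicate 2. The lowest number was 3, in injured 24 hpi replicate 2. The part of macrophages, microglia and lymphocytes in the values of the inducible subunits was not tested.

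**Figure D4:**
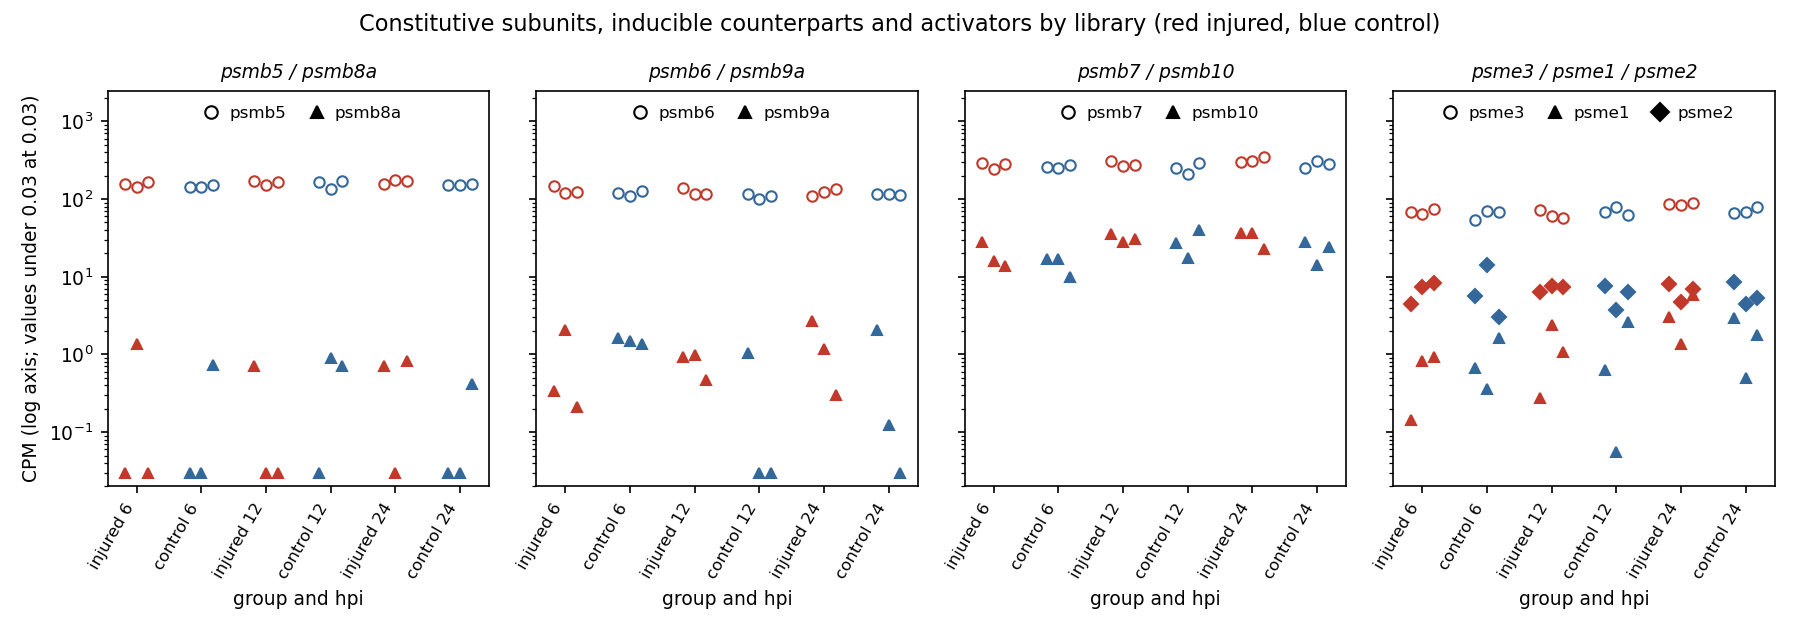
CPM by library (log axis) of psmb5, psmb6 and psmb7 with their inducible counterparts psmb8a, psmb9a and psmb10, and of the activators psme3, psme1 and psme2 (red injured, blue control; values under 0.03 CPM drawn at 0.03). psmb8a and psmb9a lie far below their partners in every library, while psmb10 stays between 9.84 and 40.0 CPM.

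The activators, which dock on the core in place of the cap, differed widely in level. psme3, the nuclear ring activator, averaged 64.5 TPM and psme4b, a large monomeric activator, 24.8 TPM. psme2 and psme1, whose mammalian counterparts form the interferon-inducible activator, averaged 7.08 and 2.27 TPM. psme3 had 69.1, 64.8 and 74.8 CPM in injured and 54.2, 69.4 and 67.8 CPM in control libraries at 6 hpi, and 71.4, 60.3 and 56.3 CPM in injured and 67.5, 78.9 and 62.3 CPM in control libraries at 12 hpi. Its 24 hpi values were 85.4, 84.7 and 88.8 CPM in injured and 66.6, 67.5 and 80.2 CPM in control libraries. The 24 hpi groups did not overlap, with a log2 fold change of 0.27 ± 0.14 (edgeR unadjusted p = 0.0653, adjusted p = 0.609).

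psme1 had 0.144, 0.832 and 0.931 CPM in injured and 0.668, 0.363 and 1.62 CPM in control libraries at 6 hpi. It had 0.274, 2.41 and 1.08 CPM in injured and 0.637, 0.056 and 2.64 CPM in control libraries at 12 hpi, and 3.03, 1.38 and 5.78 CPM in injured and 2.98, 0.493 and 1.78 CPM in control libraries at 24 hpi. psme2, which overlaps lsm5, had 4.51, 7.33 and 8.42 CPM in injured and 5.58, 14.2 and 3.04 CPM in control libraries at 6 hpi. It had 6.39, 7.63 and 7.34 CPM in injured and 7.69, 3.70 and 6.40 CPM in control libraries at 12 hpi, and 7.99, 4.77 and 7.06 CPM in injured and 8.63, 4.48 and 5.34 CPM in control libraries at 24 hpi. Neither gene separated the groups at any time.

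psme4b had 146, 92.8 and 140 CPM in injured and 91.8, 81.4 and 115 CPM in control libraries at 6 hpi, a log2 fold change of 0.40 ± 0.19 (edgeR adjusted p = 0.548). It had 101, 94.9 and 74.0 CPM in injured and 87.9, 114 and 90.6 CPM in control libraries at 12 hpi, and 138, 122 and 94.8 CPM in injured and 98.3, 99.2 and 109 CPM in control libraries at 24 hpi. Its values overlapped at each time. The paralog psme4a had 3.60, 3.23 and 2.45 CPM in injured and 0.865, 1.29 and 1.22 CPM in control libraries at 6 hpi. It was the member with the highest log2 fold change there, 1.45 ± 0.70, on low counts (edgeR unadjusted p = 0.0545, adjusted p = 0.546). At 12 hpi it had 1.80, 6.73 and 0.800 CPM in injured and 3.33, 3.64 and 3.17 CPM in control libraries, and at 24 hpi 3.56, 2.71 and 4.75 CPM in injured and 6.03, 0.780 and 4.97 CPM in control libraries, with overlap at both times.

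Among the ATPases of the cap base, 6 of 7 were higher at 6 and at 12 hpi and 7 of 7 at 24 hpi, again none past the threshold. psmc4 (ENSDARG00000027099, chromosome 16, 41794715 to 41805240, minus strand) had the smallest p of any member at 6 hpi, where 3 members (psmc4, psmb4 and psma8, all higher) and 9.28% of all genes had an unadjusted p under 0.05. It had 235, 216 and 216 CPM in injured and 174, 167 and 192 CPM in control libraries, without overlap. The log2 fold change was 0.32 ± 0.11, with an unadjusted p of 0.00765 and an adjusted p of 0.430 in edgeR; it was 0.13 with library totals. At 12 hpi psmc4 had 203, 197 and 202 CPM in injured and 207, 187 and 214 CPM in control libraries, and at 24 hpi 194, 224 and 242 CPM in injured and 208, 206 and 203 CPM in control libraries. Both later times overlapped.

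At 12 hpi 0 members had an unadjusted p under 0.05, against 3.64% of all genes. The smallest p belonged to psmc3, with 91.8, 68.5 and 72.9 CPM in injured and 62.1, 51.8 and 78.1 CPM in control libraries. Its log2 fold change of 0.28 ± 0.16 (edgeR adjusted p = 1) was 0.14 without injured 12 hpi replicate 1, 0.15 without control 12 hpi replicate 2, 0.45 without control 12 hpi replicate 3 and 0.01 without the 5 libraries of low isl2b. At 6 hpi psmc3 had 80.0, 79.1 and 77.8 CPM in injured and 64.1, 62.3 and 83.5 CPM in control libraries, and at 24 hpi 79.3, 78.0 and 77.0 CPM in injured and 69.7, 60.8 and 77.5 CPM in control libraries. The injured values were tight and the control values spread around and below them.

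Of the non-ATPase subunits 8 of 12 were higher at 6 hpi, 9 of 12 at 12 hpi and 12 of 12 at 24 hpi. psmd1 (ENSDARG00000003189, chromosome 22, 37631034 to 37716627, plus strand), a large scaffold of the cap base that overlaps htr2b, had the smallest p of any member at 24 hpi. It had 133, 163 and 126 CPM in injured and 96.1, 92.1 and 124 CPM in control libraries. The lowest injured value was barely above the highest control value. The log2 fold change was 0.43 ± 0.16 (edgeR unadjusted p = 0.0124, adjusted p = 0.444). It was 0.28 without the 5 libraries of low isl2b, a change of more than 1.5 times. Replicate 3 was then the only injured library left at 24 hpi. At 6 hpi psmd1 had 103, 97.1 and 111 CPM in injured and 105, 98.5 and 108 CPM in control libraries, and at 12 hpi 116, 110 and 106 CPM in injured and 121, 79.0 and 103 CPM in control libraries, so the groups were alike in range at 6 hpi and overlapped at 12 hpi.

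psmd12, a lid subunit, had 108, 141 and 125 CPM in injured and 108, 89.0 and 114 CPM in control libraries at 24 hpi, a log2 fold change of 0.27 ± 0.13 (edgeR unadjusted p = 0.0601, adjusted p = 0.602). It was 0.17 without injured 24 hpi replicate 2 or without control 24 hpi replicate 2, and 0.14 with library totals. psmd3, another lid subunit, had 98.1, 89.6 and 111 CPM in injured and 73.0, 69.0 and 97.8 CPM in control libraries at 6 hpi, and 105, 78.2 and 87.1 CPM in injured and 85.8, 67.9 and 98.4 CPM in control libraries at 12 hpi. Its 24 hpi values were 96.2, 113 and 99.4 CPM in injured and 78.4, 90.8 and 83.5 CPM in control libraries. Averaged over times psmd3 had a log2 fold change of 0.23 ± 0.10 (edgeR unadjusted p = 0.0254, adjusted p = 0.330), 0.14 without the 5 libraries of low isl2b and 0.12 with library totals. The members with an unadjusted p under 0.05 for the average numbered 7, against 12.6% of all genes. They were psma8, psmb4, psmc3, psmc4, psmd3, psmd12 and psmd14, all higher in injured libraries, with log2 fold changes of 0.14 to 0.23.

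At 24 hpi 11 members were higher and 1 lower in all injured than in all control libraries, where 7.85% and 8.4% of all genes separated. The higher ones were psma6b, psmb4, psmb5, psmc1a, psmc5, psmd1, psmd3, psmd4a, psmd14, psme3 and psmg1, and the lower one was psma6a. Only psmd1 and psmg1 had an unadjusted p under 0.05, against 8.48% of all genes. psmg1 (ENSDARG00000040620, chromosome 10, 206996 to 210703, minus strand), a chaperone of the alpha ring, had 51.04, 47.0 and 52.4 CPM in injured and 46.7, 31.3 and 41.1 CPM in control libraries at 24 hpi. The log2 fold change was 0.34 ± 0.16 (edgeR unadjusted p = 0.0444, adjusted p = 0.572). It was 0.19 without control 24 hpi replicate 2 and 0.22 with library totals. At 6 hpi its values ran the other way, with 38.0, 41.1 and 46.8 CPM in injured and 54.99, 50.4 and 41.0 CPM in control libraries, and the groups overlapped. At 12 hpi it had 37.9, 39.7 and 41.0 CPM in injured and 37.3, 44.7 and 40.3 CPM in control libraries. The 3 core chaperones were all lower at 6 and 12 hpi and all higher at 24 hpi, none past the threshold.

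The inhibitor psmf1 (ENSDARG00000022652, chromosome 6, 51796296 to 51811095, minus strand) had negative estimates throughout, unlike most subunits. At 6 hpi it had 25.7, 33.2 and 29.7 CPM in injured and 40.8, 33.7 and 25.4 CPM in control libraries. At 12 hpi it had 28.5, 25.7 and 35.6 CPM in injured and 30.7, 35.8 and 43.6 CPM in control libraries, and at 24 hpi 20.1, 21.0 and 25.1 CPM in injured and 27.0, 23.4 and 25.9 CPM in control libraries. The groups overlapped at each time. The log2 fold changes were -0.17, -0.29 and -0.20 at 6, 12 and 24 hpi, and -0.22 ± 0.11 on average (edgeR unadjusted p = 0.0615, adjusted p = 0.426). The 12 hpi value was -0.15 without control 12 hpi replicate 3 and -0.19 without injured 12 hpi replicate 2.

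Several subunits exist as a and b copies in zebrafish, and the balance was close to even for psma6, psmc1 and psmd11. The psmd4 pair leaned to the b copy in every library (33.4 to 49.6% for psmd4a), and psme4 was nearly all b copy. By TPM the a copy made up 53.1 ± 3.58% in injured and 52.8 ± 3.35% in control libraries for psma6, and 53.6 ± 4.24% in injured and 53.0 ± 2.64% in control libraries for psmc1. It made up 41.7 ± 4.23% in injured and 40.0 ± 4.32% in control libraries for psmd4, and 48.8 ± 3.51% in injured and 49.4 ± 4.03% in control libraries for psmd11. For psme4 it was 3.00 ± 1.80% in injured and 2.80 ± 1.80% in control libraries (SD, n = 9 each throughout). At 6 hpi the psme4a share was higher in every injured library, 2.56 ± 0.85% in injured and 1.21 ± 0.34% in control libraries (SD, n = 3 each). The 5 differences averaged over times were 0.27, 0.60, 1.70, -0.62 and 0.20 percentage points, with an adjusted p of 0.8405 each in exact permutation tests over 6 shares. Reads common to both copies could have been split between them, so the shares are uncertain. psmd4a also overlaps another row, named PSMD4 (1 of many), that the name rule does not take.

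The psma6 pair differed between times in direction. psma6a (ENSDARG00000019398, chromosome 17, 12955390 to 12966907, minus strand) and psma6b (ENSDARG00000013966, chromosome 20, 16884386 to 16906767, minus strand, overlapping nfkbiaa) encode the same alpha subunit. The psma6a share was 53.4, 59.1 and 56.6% in injured and 52.1, 50.5 and 51.5% in control libraries at 12 hpi. At 24 hpi it was 51.4, 49.9 and 49.7% in injured and 57.0, 56.6 and 55.4% in control libraries, and at 6 hpi 55.4, 54.0 and 48.2% in injured and 48.4, 55.1 and 48.4% in control libraries. All injured values were above all control values at 12 hpi, below them at 24 hpi, and overlapped at 6 hpi. An exact permutation test of whether the effect differed between times gave p = 0.01325 and 0.0795 after adjustment over 6 shares, which misses the threshold. That test permuted labels within each time, so its null was no injury effect at any time rather than an equal effect.

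By CPM both copies separated the groups at 24 hpi, in opposite directions, and neither passed the threshold. For 3 libraries against 3, the smallest possible p of an exact permutation test is 0.1. At 12 hpi the difference was mainly in psma6b, and neither copy separated the groups. psma6a had 59.0, 57.3 and 55.3 CPM in injured and 54.8, 51.7 and 58.8 CPM in control libraries at 12 hpi, and 53.3, 57.4 and 52.7 CPM in injured and 63.5, 62.0 and 58.5 CPM in control libraries at 24 hpi. psma6b had 65.7, 50.6 and 54.2 CPM in injured and 64.2, 64.6 and 70.5 CPM in control libraries at 12 hpi, and 64.3, 73.6 and 68.1 CPM in injured and 61.2, 60.6 and 60.04 CPM in control libraries at 24 hpi. At 24 hpi psma6a was lower and psma6b higher in every injured library, by -0.17 ± 0.12 and 0.18 ± 0.16 on the log2 scale (edgeR adjusted p = 0.764 and 0.836). At 6 hpi psma6a had 58.0, 44.9 and 57.2 CPM in injured and 45.8, 51.05 and 48.4 CPM in control libraries, and psma6b had 59.6, 48.8 and 78.5 CPM in injured and 62.1, 53.0 and 65.8 CPM in control libraries.

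The other pairs moved less. The psmc1a share was 58.7, 58.1 and 58.0% in injured and 51.5, 54.0 and 55.49% in control libraries at 24 hpi, without overlap, and the groups overlapped at 6 and 12 hpi; the test of a difference between times gave an exact p of 0.07 and an adjusted p of 0.21. At 24 hpi psmc1a had 183, 183 and 195 CPM in injured and 131, 165 and 168 CPM in control libraries, and psmc1b had 77.5, 80.1 and 85.6 CPM in injured and 74.6, 85.0 and 81.5 CPM in control libraries. psmd4a, whose product binds ubiquitin chains, had 76.2, 68.8 and 73.1 CPM in injured and 52.7, 66.5 and 61.4 CPM in control libraries at 24 hpi, and psmd4b had 82.0, 97.2 and 106 CPM in injured and 71.8, 82.7 and 99.4 CPM in control libraries. psmd11a had 54.8, 66.0 and 49.0 CPM in injured and 54.2, 41.3 and 55.4 CPM in control libraries at that time, and psmd11b had 68.7, 76.3 and 79.6 CPM in injured and 63.8, 70.8 and 66.2 CPM in control libraries. Of these, the psmd4a and psmc1a groups did not overlap at 24 hpi. Over the earlier times psmc1a ranged from 132 to 181 CPM in injured and 130 to 185 CPM in control libraries, psmd4a from 54.7 to 71.6 CPM in injured and 41.8 to 73.6 CPM in control libraries, and psmd11b from 51.6 to 67.0 CPM in injured and 43.1 to 68.7 CPM in control libraries.

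**Figure D5:**
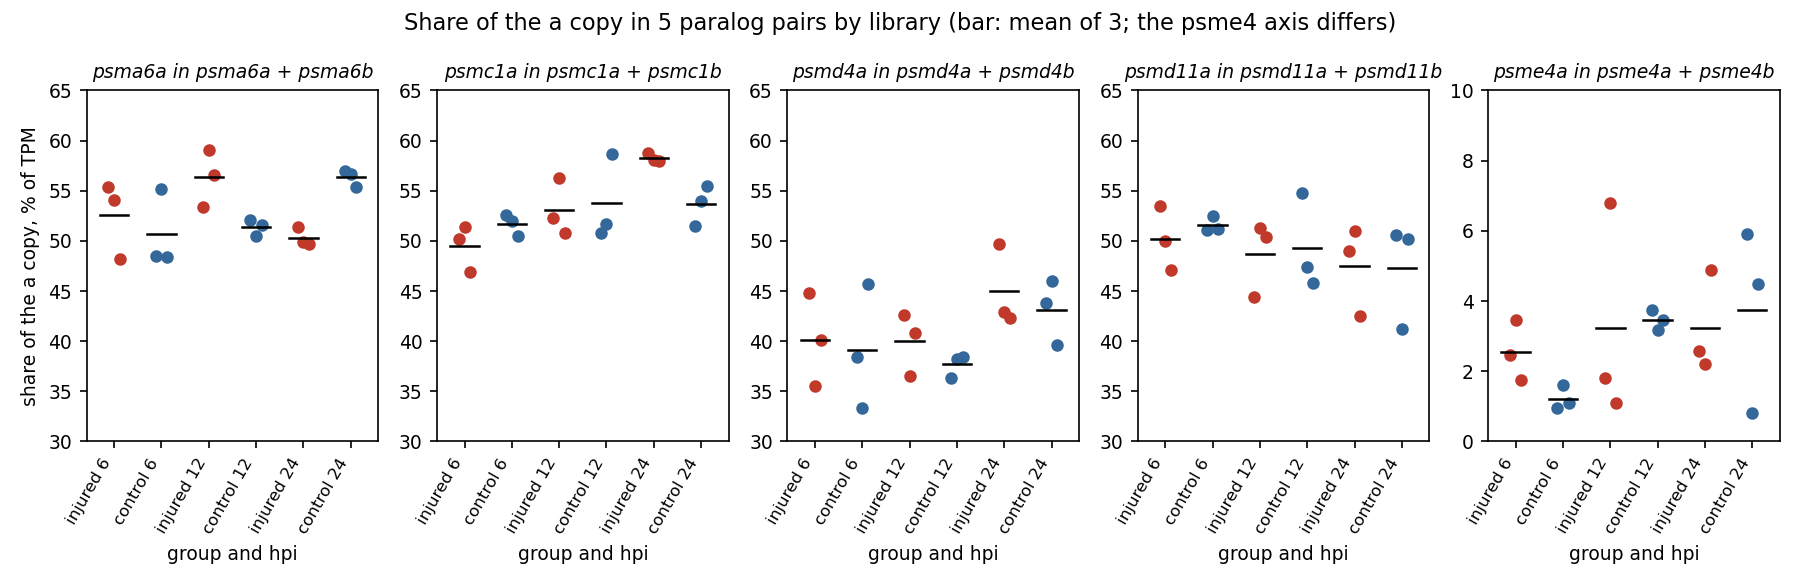
Share of the a copy in the summed TPM of 5 paralog pairs, by library, with the mean of 3 as a bar (red injured, blue control; the psme4 axis runs from 0 to 10%, the others from 30 to 65%). The psma6 points of injured libraries lie above the controls at 12 hpi and below them at 24 hpi.

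More genes were called between collection times than for injury. In control eyes 322 genes (1.84%) were called between 24 and 6 hpi and 235 (1.34%) between 24 and 12 hpi, with 0 members in each. In injured eyes 353 genes (2.01%) were called between 24 and 6 hpi, again with 0 members (edgeR in each case). At an unadjusted p under 0.05 there were 5 members between control 24 and 6 hpi (12.9% of all genes), 2 between control 24 and 12 hpi (12%) and 9 between injured 24 and 6 hpi (14.7%). DESeq2 called 745, 562 and 860 genes in these comparisons, with 1, 0 and 0 members. Members' median log2 fold changes were 0.07 for control 24 against 6 hpi, 0.05 for control 24 against 12 hpi and 0.11 for injured 24 against 6 hpi, with 35, 35 and 39 of 52 higher, where 48.1%, 49.9% and 48.6% of all genes were higher. With library totals the medians were -0.09, -0.03 and 0.01, so the sign turned in both control comparisons, and the medians of all genes were -0.19, -0.09 and -0.12. The first median was 0.04 without control 6 hpi replicate 2 and 0.14 without replicate 3. The second was 0 without control 12 hpi replicate 2, 0.02 without control 12 hpi replicate 1 or control 24 hpi replicate 3, 0.12 without control 12 hpi replicate 3 and -0.0047 without the 5 libraries of low isl2b. The third was 0.06 without injured 6 hpi replicate 2 and 0.19 without those 5, which left only replicate 3 in the injured 24 hpi group. The runs of sample numbers also differed between times. The first run held 2 control 6 hpi libraries, 1 control 24 hpi library and 1 injured 24 hpi library. With the run as a covariate the 3 medians were 0.08, 0.05 and 0.09. The labels do not say what else differed between collection times, so time and collection cannot be told apart.

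The chaperone psmd10 (ENSDARG00000015628, chromosome 14, 28464736 to 28469244, plus strand, overlapping nxt2) was nearest to the threshold. In mammals it is known as gankyrin and escorts an ATPase during assembly of the base. It had 34.5, 29.7 and 34.4 CPM in control libraries at 24 hpi, against 14.6, 19.7 and 23.9 CPM at 6 hpi. The groups did not overlap, as was so for 7 members that were higher and 0 that were lower (9.17% and 9.85% of all genes). The log2 fold change was 0.76 ± 0.22 (edgeR adjusted p = 0.0896). DESeq2 gave 0.78 with an adjusted p of 0.0210, and edgeR without control 6 hpi replicate 3 gave 0.94 with an adjusted p of 0.0499, so the call depended on the tool and on that library. The range of adjusted p over the other settings tried was up to 0.250, and 0.0499 to 0.338 as single libraries were left out.

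The injured libraries gave psmd10 values of 33.9, 37.8 and 39.6 CPM at 24 hpi, against 28.0, 19.02 and 24.5 CPM at 6 hpi. These groups too were apart, with a log2 fold change of 0.64 ± 0.21 (edgeR adjusted p = 0.156). At 12 hpi psmd10 had 33.7, 28.8 and 26.3 CPM in injured and 34.9, 25.7 and 20.6 CPM in control libraries. Injured and control libraries overlapped at 6 and 12 hpi, and at 24 hpi also.

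psma6a in control eyes had 63.5, 62.0 and 58.5 CPM at 24 hpi, against 45.8, 51.05 and 48.4 CPM at 6 hpi, a log2 fold change of 0.34 ± 0.12 (edgeR adjusted p = 0.202). psmd11b in control eyes had 63.8, 70.8 and 66.2 CPM at 24 hpi, against 58.8, 43.1 and 54.8 CPM at 6 hpi, 0.36 ± 0.15 (edgeR adjusted p = 0.310). The 24 hpi values of both genes were above all 6 hpi values, and with library totals the log2 fold changes were 0.16 for psma6a and 0.19 for psmd11b. psmf1 in control eyes had 27.0, 23.4 and 25.9 CPM at 24 hpi, against 30.7, 35.8 and 43.6 CPM at 12 hpi, -0.53 ± 0.19 (edgeR adjusted p = 0.257). psmg3, another chaperone of the core, had 46.3, 44.8 and 59.4 CPM at 24 hpi, against 59.5, 64.8 and 65.7 CPM at 12 hpi in control eyes, -0.34 ± 0.15 (edgeR adjusted p = 0.368). psmd4b had 71.8, 82.7 and 99.4 CPM at 24 hpi, against 100, 88.8 and 125 CPM at 12 hpi, -0.31 ± 0.16 (edgeR adjusted p = 0.483), and -0.16 without control 12 hpi replicate 3 or -0.20 without control 24 hpi replicate 1. psmf1 and psmg3 did not overlap between these times and psmd4b did, where 2 members were higher and 3 lower in all libraries (9.33% and 9.67% of all genes).

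In injured eyes 12 members were higher and 1 lower in all 24 hpi than in all 6 hpi libraries (9.74% and 10.1% of all genes). psmd1 had 133, 163 and 126 CPM at 24 hpi, against 103, 97.1 and 111 CPM at 6 hpi, 0.44 ± 0.16 (edgeR adjusted p = 0.177), and 0.28 without the 5 libraries of low isl2b. psmc1a had 183, 183 and 195 CPM at 24 hpi, against 159, 132 and 134 CPM at 6 hpi, 0.40 ± 0.15 (edgeR adjusted p = 0.198). The member that was lower was psmf1, with 20.1, 21.0 and 25.1 CPM at 24 hpi, against 25.7, 33.2 and 29.7 CPM at 6 hpi, -0.42 ± 0.19 (edgeR adjusted p = 0.325). The injured 24 hpi libraries included 2 of low isl2b and the injured 6 hpi libraries 1. Without those libraries the injured 24 hpi group held 1 library only.

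Genes that work with the proteasome were described from 4 lists. Of 27 partners and assembly factors 17 were higher at 6 hpi, 16 at 12 hpi and 23 at 24 hpi, with 0 called, and the median log2 fold change at 24 hpi was 0.16, against 0.02 over all genes. usp14, a deubiquitinase that sits on the cap, averaged 53.3 ± 6.11 CPM in injured and 43.0 ± 6.71 CPM in control libraries (SD, n = 9 each), 0.31 ± 0.10 on the log2 scale (edgeR adjusted p = 0.245). nploc4, which works with the unfolding ATPase vcp, averaged 30.6 ± 6.26 CPM in injured and 24.2 ± 2.29 CPM in control libraries, 0.33 ± 0.10 (edgeR adjusted p = 0.217). Its 12 hpi estimate was larger, with 35.7 ± 9.80 CPM in injured and 21.9 ± 1.56 CPM in control libraries (SD, n = 3 each). That was 0.70 ± 0.17 on the log2 scale (edgeR unadjusted p = 0.000593, not called after adjustment). rad23ab, a ubiquitin shuttle, averaged 8.36 ± 1.53 CPM in injured and 10.9 ± 2.61 CPM in control libraries, -0.37 ± 0.15 (edgeR adjusted p = 0.326). At 6 hpi its log2 fold change was -0.81 ± 0.26 (edgeR adjusted p = 0.430). At 12 hpi sem1, a small subunit of the cap, averaged 126 ± 6.92 CPM in injured and 151 ± 8.35 CPM in control libraries (SD, n = 3 each), -0.26 ± 0.11 (edgeR adjusted p = 1). Among 24 genes of ubiquitin supply and conjugation 14 were higher at 24 hpi, with a median of 0.05 and 0 called. The ubiquitin-activating enzyme uba1 averaged 138 ± 20.2 CPM in injured and 122 ± 16.8 CPM in control libraries (edgeR adjusted p = 0.360). The conjugating enzyme genes named by the same rule were ube2g1a at 6 hpi, with a log2 fold change of -0.46 ± 0.18 (edgeR adjusted p = 0.502), and ube2l3a and ube2d1b at 24 hpi, with 0.29 ± 0.13 and 0.23 ± 0.11 (edgeR adjusted p = 0.566 and 0.582).

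Some CNC-bZIP factors induce proteasome genes when proteasome activity is short. Of 22 genes around these factors 9 were higher at 6 hpi and 15 at each of 12 and 24 hpi, with 0 called for injury. sel1l, an adaptor of the degradation machinery of the endoplasmic reticulum, averaged 102 ± 18.9 CPM in injured and 77.8 ± 11.9 CPM in control libraries, 0.39 ± 0.09 (edgeR adjusted p = 0.142). keap1b, related to a repressor of some but not all CNC-bZIP factors, averaged 11.7 ± 4.42 CPM in injured and 6.77 ± 2.00 CPM in control libraries at 24 hpi (SD, n = 3 each), 0.79 ± 0.30 (edgeR adjusted p = 0.489), with overlapping groups. The control libraries at 6 hpi averaged 13.8 ± 0.43 CPM, so the 24 hpi controls were themselves lower than at 6 hpi (-1.03 ± 0.30, edgeR adjusted p = 0.103). txnrd3, a thioredoxin reductase, had a log2 fold change of 0.29 ± 0.12 at 12 hpi (edgeR adjusted p = 1) and 0.18 ± 0.07 on average (edgeR adjusted p = 0.329). hmox1a, a heme oxygenase, was at 0 in the injured 24 hpi libraries and averaged 0.385 CPM in the control 24 hpi libraries, near the floor. maff, a small Maf partner of these factors, rose with time in both eyes. It averaged 111 ± 6.16 CPM in injured libraries at 24 hpi, against 62.7 ± 3.46 CPM at 6 hpi (SD, n = 3 each; 0.83 ± 0.14, edgeR adjusted p = 0.00311), and 101 ± 5.10 CPM in control libraries at 24 hpi, against 63.8 ± 11.3 CPM at 6 hpi (0.66 ± 0.14, edgeR adjusted p = 0.0157). zfand5b, a gene of the partners list related to a mammalian proteasome-binding protein, fell to 60.1 ± 6.82 CPM in control libraries at 24 hpi, against 96.7 ± 7.09 CPM at 12 hpi (-0.69 ± 0.15, edgeR adjusted p = 0.0282). Its paralog zfand5a did not share this direction in control 24 against 6 hpi. There zfand5a had 0.40 ± 0.16 (edgeR adjusted p = 0.250) and zfand5b -0.52 ± 0.15 (edgeR adjusted p = 0.0915).

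The interferon and antigen processing list, which includes genes commonly induced together with the immune subunits, had 23 of 25 genes tested and 0 called for injury. Its median log2 fold change was -0.10 at 6 hpi, 0.02 at 12 hpi and -0.04 at 24 hpi. irf9, a mediator of interferon signalling, averaged 62.5 ± 31.5 CPM in injured and 23.4 ± 6.73 CPM in control libraries at 24 hpi (SD, n = 3 each), 1.42 ± 0.46 (edgeR adjusted p = 0.369). tapbpl, which edits the peptides loaded for antigen presentation, averaged 6.26 ± 7.34 CPM in injured and 35.5 ± 7.32 CPM in control libraries at that time, -2.50 ± 0.85 (edgeR adjusted p = 0.400). irf1b, an interferon regulatory factor, averaged 12.7 ± 4.03 CPM in injured and 4.69 ± 1.27 CPM in control libraries at 24 hpi, 1.44 ± 0.67 (edgeR adjusted p = 0.576). At 6 hpi irf1b averaged 2.11 ± 1.70 CPM in injured and 5.93 ± 3.64 CPM in control libraries, -1.47 ± 0.68 (edgeR adjusted p = 0.531), and the test of a difference between times gave an edgeR unadjusted p of 0.0160 and an adjusted p of 0.992. stat1a, a transcription factor of interferon signalling, had a log2 fold change of 0.30 ± 0.12 at 12 hpi (edgeR adjusted p = 1). None of these passed the threshold.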

How the data were processed

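Per the file headers, the authors deposited 3 tables, one per time point, each with counts per gene and library without normalization, TPM per library, and log2 fold changes with p-values from a test whose model is not given in the sources used here. The counts were used for all edgeR and DESeq2 tests. The deposited TPM values served for levels between genes and for the shares, whose permutation tests therefore ran on TPM. The authors' deposited log2 fold changes and p-values were used to count calls and to give the smallest adjusted p of a member at each time. The build is GRCz11 per the submitters' processing notes. The aligner, annotation and use of strand are not given in the sources used here. The headers mark injured 6 hpi replicate 1 as trimmed. All sample columns were mapped, with 0 left over. Counting error is small at 15490375 to 28329194 counts per library, but amplified reads carry no molecular identifiers, and floors cover counting error only.

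Genes were taken by name as the tables spell them. Tests ran in R 4.3.3 with edgeR 4.0.16 (TMM, filterByExpr with a minimum count of 10, quasi-likelihood test, 1 mean for each of 6 groups, 17527 genes, Benjamini-Hochberg adjustment, threshold 0.05). DESeq2 1.42.0 was an alternative. Standard errors were derived as the absolute log2 fold change over the root of F. For shares, all permutations of labels within each time were enumerated (two-sided, Python 3.11.15 with numpy 2.4.6). The edgeR code was tested on simulated counts. A check for duplicate libraries (chi-square divided by genes, 23.2 to 101 in the 18 within-group pairs) found none within sampling noise.

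The members and the gene lists were chosen with earlier results of these data known. Values by library were given for the catalytic, inducible and activator genes, for paralog pairs, and for the 3 members of smallest p at an average log2 CPM of at least 3 in each comparison. List genes were named where called. In the injury comparisons they were also named where among the 2 highest or 2 lowest log2 fold changes at an unadjusted p under 0.05. This was applied at each time and on average. Over time only called list genes are given, apart from values of zfand5a, zfand5b and keap1b added as limits. Other members were named for their level or spread after their values were seen. Alternatives were another scaling, another test, no filter, leaving out libraries, the number runs and a replicate block.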

Additional observations from a re-analysis of the deposited data

Results flagged for a closer look

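The share of psma6a in the summed TPM of psma6a and psma6b went in opposite directions at 2 times. At 12 hpi it averaged 56.3 ± 2.86% in injured and 51.4 ± 0.81% in control libraries, a difference of 4.96 percentage points. At 24 hpi it averaged 50.3 ± 0.93% in injured and 56.3 ± 0.82% in control libraries, a difference of -6.00 percentage points (SD, n = 3 each). Every injured library lay above every control library at 12 hpi and below every one at 24 hpi. The test of the difference between times gave an exact permutation p of 0.01325, and 0.0795 after adjustment over 6 shares. Its null was no injury effect at any time, since labels were permuted within each time. Rod and cone markers took 16.6 to 24.7% of counts in injured and 17.2 to 20.3% in control libraries at 12 hpi, and 24.4 to 25.8% in injured and 22.1 to 22.4% in control libraries at 24 hpi, and their part in this share was not tested. Groups of 3 libraries were too small for a test of single outlying libraries.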

How the results depend on the processing

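In the comparisons of injured with control eyes 0 members were called under every setting run: DESeq2, its size factors, no filter, library totals, the 6 libraries of a comparison alone, the number runs, a replicate block, and leaving out any library or the 5 of low isl2b (these 5 and the totals were chosen after seeing the data). Counts of called genes were less stable. DESeq2 called 68, 7, 189 and 226 genes at 6, 12 and 24 hpi and on average, 745, 562 and 860 in the time comparisons and 13 in the joint test. It called 1 member, psmd10 in control 24 against 6 hpi (0.78, adjusted p 0.0210). The 6 libraries alone gave 6 at 6 hpi, 50 at 24 hpi and 161 for injured 24 against 6 hpi. Without a filter there were 2 at 24 hpi and 2 on average. Without the 5 libraries of low isl2b there were 26 at 24 hpi, 5 on average, 117 for control 24 against 12 hpi and 128 for injured 24 against 6 hpi. The second number run alone, with 1 control 6 hpi library assumed to vary like the other groups, gave 95, 117 and 149 in the 3 time comparisons.

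With library totals the members' median was -0.11 at 6 hpi and -0.0852 for control 24 against 6 hpi, and average effects reversed for psmb5 (-0.0313) and psme3 (-0.0380). psmb10 reversed to -0.0396 without the 5 libraries, which left only replicate 3 in the injured 24 hpi group. Differences in share, in percentage points, reversed to -0.0605 for psma6, -0.30 for psmd4 and -0.79 for psmb10 without those 5, and to -0.0255 for psmc1 and 0.89 for psmd11 within the second run. The causes were not tested.

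Leaving out single libraries gave 0 to 1 called genes at 6 hpi, 0 at 12 hpi, 0 to 7 at 24 hpi, 0 to 14 on average, 138 to 396 for control 24 against 6 hpi, 113 to 252 for control 24 against 12 hpi and 181 to 377 for injured 24 against 6 hpi. The highest injury counts came without injured 12 hpi replicate 1 (7 at 24 hpi) and injured 6 hpi replicate 2 (14 on average); without injured 12 hpi replicate 3 there were 1 at 6 hpi and 11 on average. Counts fell by more than 1.5 times in control 24 against 6 hpi without control 6 hpi replicate 1 (138) or 2 (148) or control 24 hpi replicate 1 (184), 2 (158) or 3 (189). They did so in control 24 against 12 hpi without control 12 hpi replicate 1 (143), 2 (125) or 3 (144) or control 24 hpi replicate 1 (123) or 2 (113), and in injured 24 against 6 hpi without injured 6 hpi replicate 3 (181) or injured 24 hpi replicate 2 (219) or 3 (197). Members called in control 24 against 6 hpi were 0 to 1, psmd10 at 0.59 to 0.94. Share differences ranged over -0.20 to 1.02 for psma6, -1.64 to 0.28 for psmd11 and -0.39 to 0.57 for psme4.

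Whether replicate numbers pair the libraries could not be settled, since the labels do not identify animals. Same-numbered libraries of a time correlated at -0.07 to 0.13 in their deviations, and 9 of 18 were closest to their own number. With a replicate block 0 genes were called for injury, and 285, 208 and 306 in the time comparisons. With 3 libraries a group and a median standard error of 0.15, changes as small as the medians here were not detectable for single genes.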
